A study of Mus musculus with 8 samples.

Results

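The genes described here belonged to 7 families of ubiquitin ligases and ligase adaptors: Trim, Rnf, Fbxo, Fbxl, Fbxw, Klhl and Asb. They were chosen by name, as every gene with a family name followed by a number that held a peak of N6-methyladenosine (m6A) in at least 1 of 4 deposited peak lists. Set aside were 6 genes of the same families grouped with the muscle atrophy ligases, Fbxo30, Fbxo31, Fbxo32, Fbxo40, Trim63 and Klhl41. The rule gave 105 genes of 5987 called gene names, and the remaining 5882 names served as background. The 105 genes carried 632 peaks over the 4 lists.

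The lists came from m6A MeRIP-seq, in which RNA fragments are captured with an antibody against m6A and sequenced beside uncaptured input RNA. The mice were C57BL/6 males aged 10 weeks, with no transgene or deleted gene named, and the muscle was the gastrocnemius of the calf. Denervated muscle was taken 14 days after denervation, and the innervated control was the muscle of the opposite leg. Each group had 2 replicates, each replicate gave 1 immunoprecipitated (IP) and 1 input library, and each IP library gave 1 peak list.

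The labels do not say that the replicate numbers mark separate animals, so p-values over libraries reflect only how far these samples differ, and that spread may be technical. List length was 9327 peaks for innervated replicate 1 and 10300 for replicate 2, and 9804 and 9496 for the denervated replicates in the same order. Read counts were not analysed here, so depth is unknown, and a gene without a peak may still carry m6A. A peak call depends on transcript abundance as well as on methylation, and in whole muscle fewer cells of a type and less RNA per cell cannot be told apart. A peak is no measure of expression: 0 of 10 skeletal muscle fibre markers, Acta1 and Ckm among them, held a peak. Of 6 macrophage and immune markers only 1, Cd163, held a peak, and it did so in all 4 lists. Of 4 endothelial markers 3 held a peak, with Cdh5 and Kdr in all 4 lists. Of the other marker lists, 1 of 4 Schwann cell, 2 of 3 fibroblast and 1 of 2 satellite cell markers held a peak in at least 1 list.

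Ubiquitin ligases attach the small protein ubiquitin to chosen proteins and so mark many of them for the proteasome. Most Trim and Rnf proteins carry a RING domain that recruits the ubiquitin-loaded enzyme directly, whereas F-box proteins (Fbxo, Fbxl, Fbxw) bring substrates to CUL1, Kelch-BTB proteins (Klhl) to CUL3, and many Asb proteins to CUL5 complexes through their SOCS box. In denervated muscle a few such ligases are known for driving protein loss. m6A is deposited on adenosines of messenger RNA, often near stop codons, and is known to affect splicing, translation and decay of the transcript.

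The number of these genes called per library did not separate the groups. They numbered 78 in innervated replicate 1, 81 in innervated replicate 2, 85 in denervated replicate 1 and 74 in denervated replicate 2, so both innervated values lay between the denervated ones. The mean was 79.5 ± 2.12 genes in innervated and 79.5 ± 7.78 in denervated muscle (SD, n = 2), with a difference of 0 (two-sided exact permutation test, p = 1.0). With 2 against 2 libraries this test cannot go below 0.33. The genes held 148 and 164 peaks in the innervated lists and 159 and 161 in the denervated lists. Mean peak numbers were 156.0 ± 11.3 and 160.0 ± 1.41, respectively, a difference of 4.0 that was smaller than the innervated spread (exact permutation test, p = 1.0).

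A majority of these genes recurred in every library. Peaks were called in all 4 lists for 56 of the 105 genes (53.3%), against 48.8% of all other called genes. A further 16 genes (15.2%) were called in 3 lists, 13 (12.4%) in 2 and 20 (19.0%) in 1, beside 16.6%, 15.1% and 19.6% of the other genes. All 4 lists held 14 of 21 called Klhl genes (66.7%), 7 of 12 Fbxo genes (58.3%), 4 of 7 Fbxl genes (57.1%) and 3 of 4 Fbxw genes (75%). The corresponding counts were 2 of 4 Asb genes (50%), 17 of 35 Rnf genes (48.6%) and 9 of 22 Trim genes (40.9%). These shares refer to genes with at least 1 peak and are descriptions of small families, not tests between them.

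**Figure D1:**
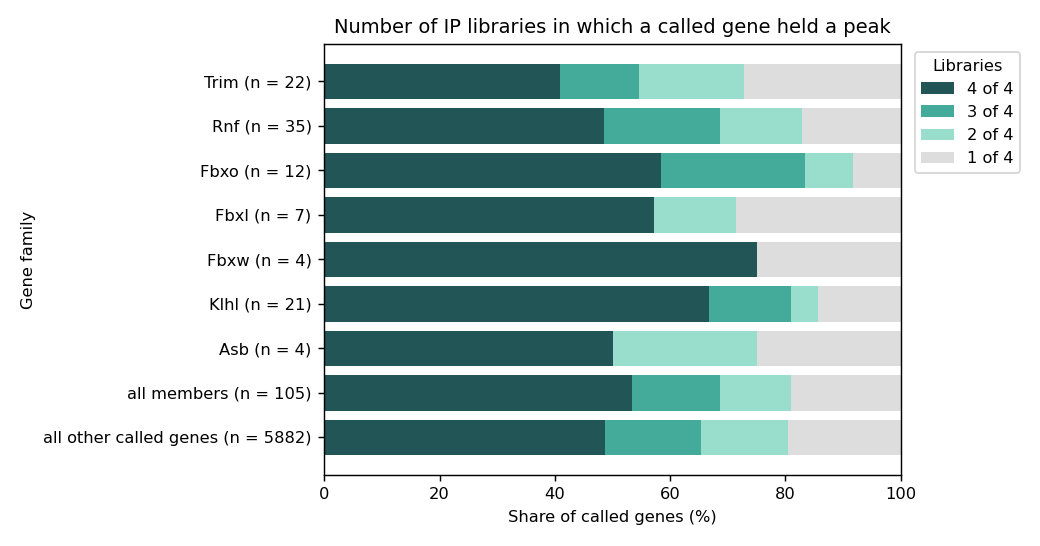
Share of called genes (x axis, percent) by the number of IP libraries in which the gene held a peak, for each gene family, for all 105 genes and for all 5882 other called genes; n is the number of called genes. The share of genes called in all 4 libraries was 40.9% for Trim and 66.7% for Klhl genes, with 53.3% for the 105 genes and 48.8% for the others.

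Families also differed in how many of their genes were called at all. Among genes that RefSeq annotates as protein coding, a peak was called for 21 of 36 Klhl genes (58.3%), 34 of 83 Rnf genes (41.0%), 7 of 18 Fbxl genes (38.9%) and 11 of 32 Fbxo genes (34.4%). The share was 22 of 67 (32.8%) for Trim, 4 of 18 (22.2%) for Asb and 4 of 24 (16.7%) for Fbxw genes. Over the 7 families together 103 of 278 coding genes (37.1%) were called, beside 5685 of 21622 (26.3%) of all other coding genes. Transcript levels, which bear on calling, are unknown here.

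Calls in one group alone were rare. Trim44 was the single gene called in both denervated lists and neither innervated list, 1 of 105 (0.952%), whereas 3.47% of all other called genes fell in that class. No gene of the 105 was called in both innervated lists and neither denervated list, beside 3.20% of the other genes. Among genes called in exactly 2 lists, 1 of 13 (7.69%) had both in the same group, against 44.1% of the other genes with exactly 2 lists. The rule itself bears on these counts, because Fbxo31 and Klhl41, both set aside, were also called in the denervated lists only, with 0, 0, 1 and 1 peaks each. With the 6 genes put back the families held 3 genes called in the denervated lists only.

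Trim44 encodes an atypical Trim protein that lacks the RING domain. It held 0 peaks in both innervated lists and 3 in each denervated list, covering 697 bases in denervated replicate 1 and 401 in replicate 2. Its transcript runs over chr2:102300119-102400900 (mm10, minus strand). Both denervated lists held a region at chr2:102400106-102400552, covered over 447 bases in replicate 1 and 150 in replicate 2 and beginning 348 bases from the annotated start, and a region of 150 bases at chr2:102304240-102304389, 95.8% of the way along the gene. The highest percentile of its peaks was 97.6 in denervated replicate 1 and 96.0 in replicate 2, where the percentile is 100 at the smallest deposited score. What that score measures is not given, so a high percentile need not mean a stronger peak. Denervated replicate 1 also had a peak at chr2:102400751-102400850 and replicate 2 one at chr2:102357430-102357530, neither of which recurred. Without read counts, no fold difference can be given for Trim44.

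**Figure D2:**
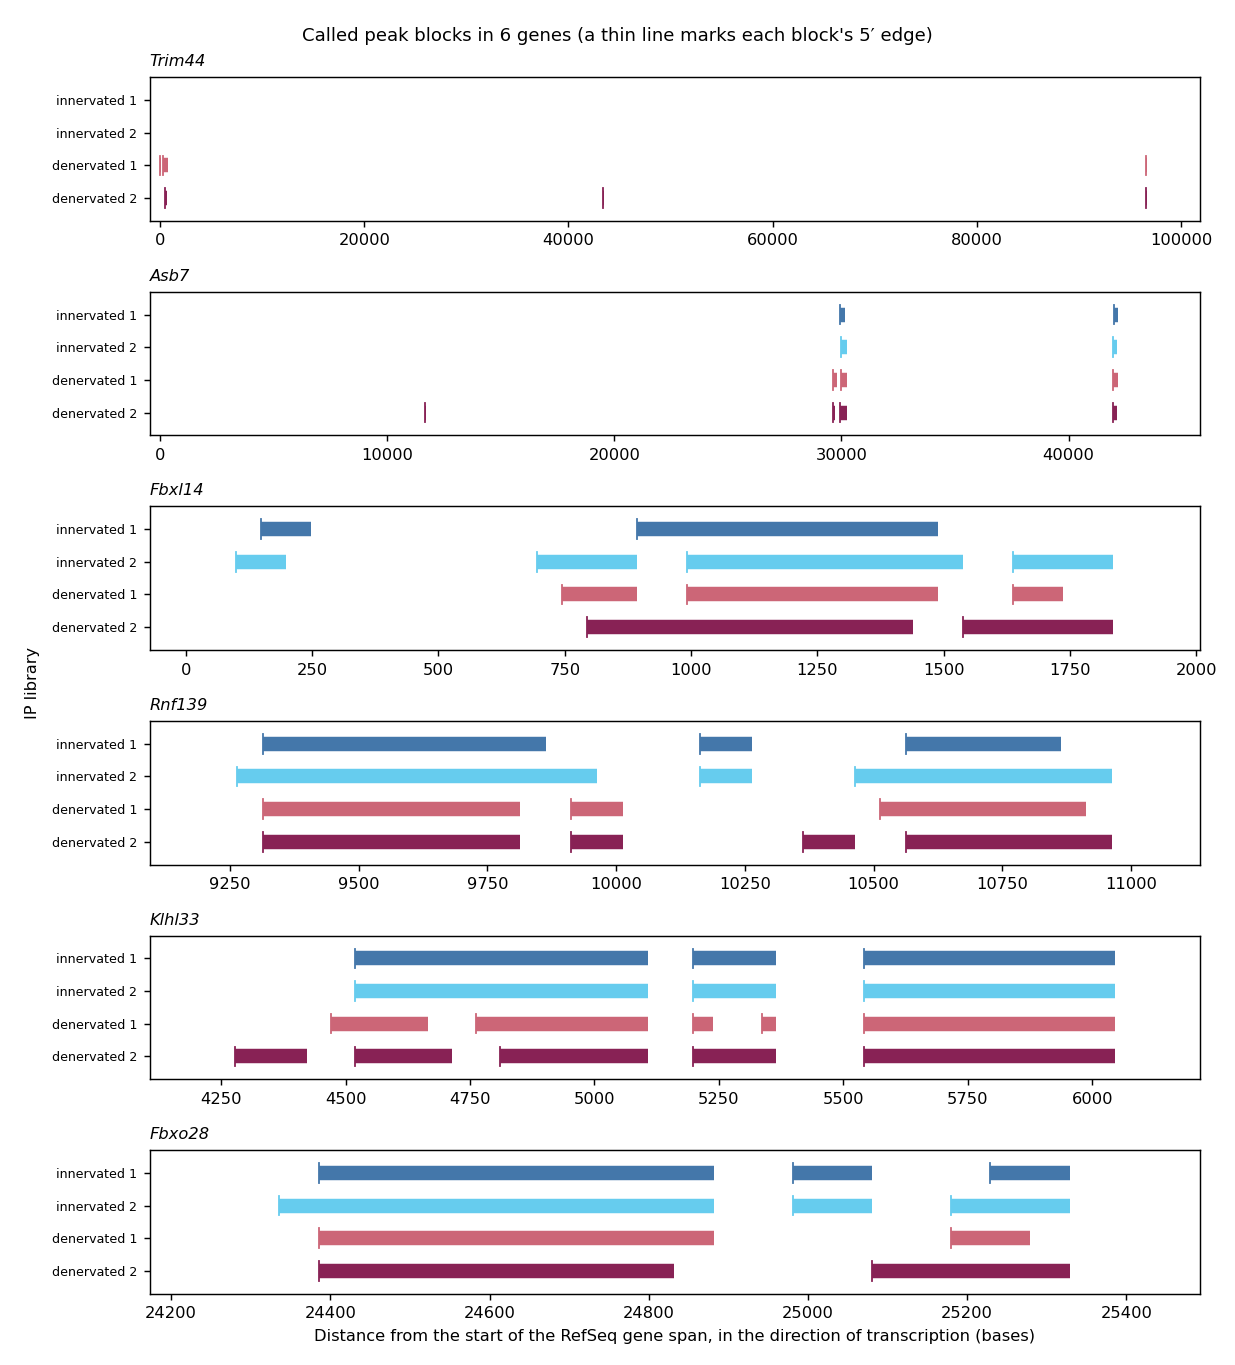
Blocks of called peaks (bars) in each IP library for 6 genes, plotted by distance in bases from the start of the RefSeq gene span in the direction of transcription; each panel has its own scale and a thin line marks each block's 5′ edge. Trim44 has bars in the denervated libraries alone, while the other 5 genes have bars in all 4 libraries and differ in single blocks or in how a covered stretch is divided.

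Single regions were also rarely called in 1 group alone. Same-strand peaks of different lists with 1 or more bases in common were linked into 211 regions, of which 84 (39.8%) were called in all 4 lists, against 34.6% of regions in other genes. Regions called in both denervated lists and neither innervated list numbered 3 of 211 (1.42%), beside 3.71% in other genes. The opposite class held 2 of 211 (0.948%), beside 4.25% in other genes. Besides the Trim44 pair, the third denervated region lay in Asb7, and the innervated regions lay in Fbxl14 and Rnf139. All of these last 3 genes also had regions called in every list.

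Asb7, a substrate receptor of CUL5 ligases, held 2 and 1 peaks in the innervated and 2 and 2 in the denervated lists. The denervated region of 248 bases, in 2 blocks between chr7:66660057 and chr7:66678205, lay 98 bases from the region called everywhere (chr7:66647689-66659958). In all, its peaks covered 448 and 447 bases in innervated and 695 and 646 in denervated muscle, so the groups did not overlap. Fbxl14, which targets the transcription factor Snail, held 2 and 4 peaks against 3 and 2. Its innervated region of 150 bases, chr6:119479767-119479916, began 99 bases from the gene start and stood 446 bases from the region called in all lists. Rnf139, a membrane ligase of the endoplasmic reticulum also known as TRC8, held 3 and 3 peaks against 3 and 4. The innervated region, chr15:58899392-58899492, was a stretch of 101 bases between regions called in every list.

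Within the 56 genes called everywhere, the number of peaks was higher in both denervated than in both innervated lists for 1 gene, Klhl33 (1.79%), beside 4.92% of the other genes called in all lists. Klhl33, a Kelch-BTB gene, had 1 peak in each innervated list and 3 in each denervated list. The covered length did not follow that count: it was 1262 bases in both innervated libraries, and 1118 and 1312 in the denervated ones. In the denervated lists 3 peaks lay on or beside the stretch that a single peak of 3 blocks covered in innervated muscle. The highest percentile was 4.58 and 23.6 in innervated and 78.2 and 78.6 in denervated muscle, which gives rank by score and not a known peak strength. In the opposite direction the number was higher in both innervated lists for 1 gene, Fbxo28 (1.79%), beside 6.56% of the other genes. Fbxo28, reported to act on the transcription factor MYC, held 3 and 3 peaks against 2 and 2, with 698 and 797 covered bases against 597 and 697. Both counts depend on the score: with the larger-score 50% of each list the Klhl33 difference was -1.0 peaks, and with the smaller-score 50% that of Fbxo28 was 0.0.

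Covered bases, the summed length of a gene's peaks, separated the groups in a few more genes. They were higher in both denervated libraries for 5 of 56 genes (8.93%), beside 15.7% of the other genes: Asb7, Klhl22, Klhl8, Rnf146 and Rnf219. They were higher in both innervated libraries for 8 of 56 (14.3%), beside 17.2%, among them Fbxo28, Fbxo42, Fbxo46, Klhl24, Rnf122, Rnf150 and Trim24. Any gap was counted, however small, although most peak widths came in steps of 50 bases. The nearest innervated and denervated values were 698 and 697 for Fbxo28, 1235 and 1186 for Fbxo46, and 297 and 347 for Klhl8. Klhl22, a CUL3 adaptor in mitosis, had 100 and 150 covered bases in innervated and 396 and 347 in denervated muscle. Its 1 peak per list stood near the largest-score end of both innervated lists, at percentiles 2.85 and 0.845, and at 46.7 and 20.7 in the denervated lists. Rnf150, with a protease-associated domain, had 1400 and 1702 in innervated and 852 and 952 in denervated muscle. Trim24, a transcription intermediary factor, had 1000 and 1050 against 451 and 300. Over the 56 genes the ratio of denervated to innervated covered bases had a median of 1.0 and ran from 0.366 to 2.97. For the 2868 other genes called everywhere it had the same median, 1.0, and ran from 0.169 to 7.55. In both directions the share was below that of the other genes.

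**Figure D3:**
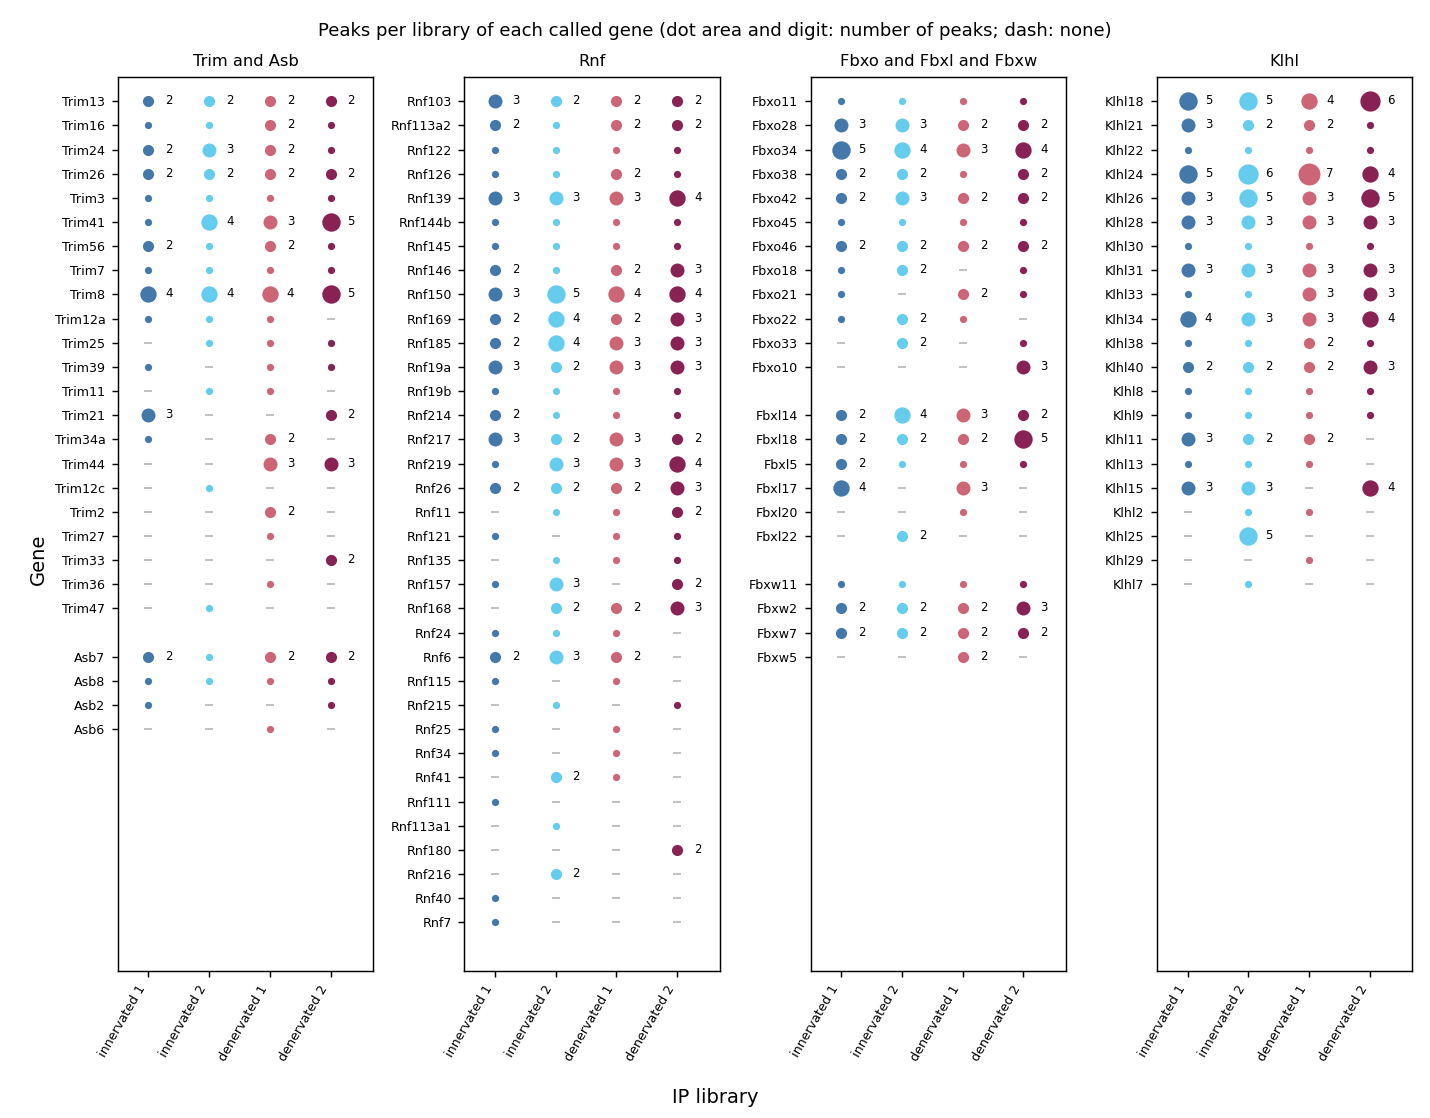
Number of called peaks in each IP library (x axis) for 104 of the 105 genes (y axis), by family; dot area and the printed digit give the number of peaks, a dot with no digit is 1 peak and a dash is none. Trim44 is filled in both denervated columns alone, and no gene is filled in both innervated columns alone.

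The Trim family held 22 genes with 106 peaks in 42 regions, of which 11 were called in all lists. The Trim proteins best known in muscle had no peak in any list: Trim32, a ligase of muscle filaments whose mutation causes limb-girdle dystrophy, Trim54 and Trim55, both sarcomere-bound relatives of Trim63, and Trim72, a membrane repair protein. Of the transcription intermediary factors, Trim24 was called everywhere, Trim33 in denervated replicate 2 with 2 peaks, and Trim28 and Trim66 in no list. Of 12 Trim genes of innate and antiviral immunity, 8 held a peak and 3 were called everywhere (Trim8, Trim26 and Trim56). For comparison, 32.8% of Trim coding genes and 26.3% of all other coding genes were called. Among called genes, 40.9% of the Trim genes and 48.8% of the other genes were called everywhere. Per list 6, 6, 6 and 5 of these immune genes were called, so their number did not separate the groups.

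Trim56, which acts in the response to foreign DNA and RNA, carried the widest region of the families, 1894 bases in 3 blocks at chr5:137113029-137116207. Its peaks covered 1645 and 1744 bases in innervated and 1696 and 1894 in denervated muscle, with overlapping groups. Trim8, a regulator of inflammatory signalling, held 4, 4, 4 and 5 peaks, and its first region (chr19:46501798-46502645) covered 750, 699, 251 and 651 bases, lowest in denervated replicate 1. Trim26 varied little, with 2 peaks in each list and 898, 898, 898 and 1048 bases. Trim41 varied more, with 1, 4, 3 and 5 peaks, although its region 1254 bases from the gene start (chr11:48816103-48816945) was called in every list. Trim7, a ligase that binds glycogenin, held 1 peak in each list, with a percentile of 98.2, 98.6, 99.7 and 93.2, high in both groups. Other Trim genes called everywhere were Trim3, Trim13 and Trim16. Trim3 and Trim2 were the 2 called genes of 4 with NHL repeats, beside 32.8% of Trim coding genes and 26.3% of all other coding genes. In 3 lists stood Trim12a, Trim25 and Trim39, in 2 lists besides Trim44 Trim11, Trim21 and Trim34a, and in 1 list Trim2, Trim12c, Trim27, Trim33, Trim36 and Trim47. Trim12a and Trim12c are closely related copies, and whether reads of either were assigned to the other was not tested.

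The Rnf family was the largest, with 35 genes, 195 peaks and 64 regions, 23 of them called in all lists. Of 8 ligases of the RING-between-RING class, 5 held a peak and 4 were called everywhere, namely Rnf19a, Rnf19b, Rnf144b and Rnf217. Of 8 chromatin and DNA damage ligases, 4 held a peak and 1, Rnf169, was called in all lists. For comparison, 41.0% of Rnf coding genes and 26.3% of all other coding genes were called. Among called genes, 48.6% of the Rnf genes and 48.8% of the other genes stood in all lists. These small counts were not tested. Rnf169 binds ubiquitinated chromatin at DNA breaks and held 2, 4, 2 and 3 peaks over 797, 1344, 846 and 1642 bases, higher in both libraries numbered 2. Rnf168, which marks histone H2A at such breaks, had 0, 2, 2 and 3 peaks. Rnf40, a ligase of histone H2B, had a peak of 198 bases in innervated replicate 1 alone, while its partner Rnf20 and the Polycomb ligase Rnf2 had none. The large ligase Rnf213 also had no peak.

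Of 7 genes with a protease-associated domain only Rnf150 held peaks, beside 41.0% of Rnf coding genes and 26.3% of all other coding genes. Rnf150 was called in all 4 lists, and its first region (chr8:82863456-82864354) began 190 bases from the gene start. That region covered 800 and 800 bases in innervated and 351 and 501 in denervated muscle. Rnf185, a ligase of protein quality control at the endoplasmic reticulum, had an all-list region of 1532 bases at chr11:3416566-3419871. Its peaks covered 1039, 1732, 1435 and 1287 bases, so the groups overlapped. Rnf146, which recognises poly-ADP-ribosylated proteins such as axin, had 993 and 991 covered bases in innervated and 1142 and 1486 in denervated muscle. Rnf219, named Obi1 in RefSeq, a ligase of replication origins, had 100 and 597 against 941 and 894, with innervated replicate 1 far below the rest.

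Other Rnf genes called everywhere were Rnf26, Rnf103, Rnf113a2, Rnf122, Rnf126, Rnf139, Rnf145 and Rnf214. Those called in 3 lists were Rnf6, Rnf11, Rnf24, Rnf121, Rnf135, Rnf157 and Rnf168, and those in 2 lists Rnf25, Rnf34, Rnf41, Rnf115 and Rnf215. Rnf7, the RING subunit of CUL5 ligases, and Rnf40, Rnf111, Rnf113a1, Rnf180 and Rnf216 were called in 1 list. Rnf113a1 and Rnf113a2 are related copies, and a wrong assignment of reads between them was not tested.

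Rnf217, a RING-between-RING ligase, had a peak that began at the annotated start of its gene in both libraries numbered 1. In both libraries numbered 2 the first peak began further downstream, at the end of the first 50 bases. Its region chr10:31608641-31609725 (1085 bases, minus strand) covered 889 and 889 bases in innervated and 988 and 987 in denervated muscle. Over all peaks of Rnf217 the covered bases were 1285 and 889 against 1383 and 1136, so the groups overlapped. The RefSeq promoter table lists 1 or more starts for 84 of the 105 genes, which need not be the outer end of the gene span used elsewhere. Rnf217 was the single gene of these 84 where peaks reached the 50 bases after a listed start in all 4 lists, with 50, 1, 50 and 1 of these bases covered. Among the other genes with a listed start, 55 of 4660 were reached in all 4 lists, beside 1 of 84 here. In at least 1 list such bases were reached in 5 of 84 genes (5.95%; Klhl28, Rnf146, Rnf217, Trim24 and Trim56), beside 404 of 4660 (8.67%) of the other genes. The promoter of Rnf217 is shown because a peak abuts it in both libraries numbered 1. The sequence is from RefSeq GRCm38.p6 (chr10:31609696-31609975, minus strand, 5′ to 3′), with the first 30 transcribed bases in capitals.
Rnf217: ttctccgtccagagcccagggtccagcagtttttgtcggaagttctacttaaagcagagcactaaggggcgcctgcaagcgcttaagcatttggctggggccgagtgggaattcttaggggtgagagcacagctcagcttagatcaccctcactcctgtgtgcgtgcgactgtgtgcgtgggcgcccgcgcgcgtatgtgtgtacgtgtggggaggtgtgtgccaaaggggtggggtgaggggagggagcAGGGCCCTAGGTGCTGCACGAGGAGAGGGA
The letters GGAC, the core of the m6A consensus, were searched on the transcribed strand in these windows of 50 bases. They were found in 0 of the 5 windows and in 6194 of 32851 windows of the RefSeq table (18.9%), which says only that these letters were not there.

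F-box genes fell into 3 families by the partner domain that binds the substrate. The 12 Fbxo genes held 76 peaks in 26 regions, 12 of them called in every list. Fbxo11, which targets BCL6, held 1 peak in each list, of 446, 447, 447 and 397 bases, at chr17:87991701-87992278. Fbxo34 held 5, 4, 3 and 4 peaks in 6 regions, with 3 called everywhere at 95.9%, 96.4% and 99% of the gene. Fbxo42, reported to act on p53, had adjacent regions 49 bases apart near chr4:141199681-141200727, covering 799 and 850 bases in innervated and 550 and 649 in denervated muscle. The other genes in all lists were Fbxo38, Fbxo45 and Fbxo46. Fbxo18 (Fbh1 in RefSeq), Fbxo21 and Fbxo22 were called in 3 lists, Fbxo33 in 2 and Fbxo10 in 1.

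The 7 Fbxl genes, with leucine-rich repeats, held 47 peaks in 15 regions. Fbxl18 held 2, 2, 2 and 5 peaks, and its covered bases, 300, 846, 697 and 1246, varied as much within as between groups. Fbxl5, the iron sensor that targets IRP2, held 2, 1, 1 and 1 peaks over 448, 597, 597 and 647 bases. Fbxl4, which restrains mitophagy, had no peak. Fbxl17, which removes misassembled BTB dimers, was called in 2 lists, and Fbxl20 and Fbxl22 in 1.

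Among the Fbxw genes, whose WD40 repeats bind substrates, 4 were called with 23 peaks in 8 regions. Fbxw7, the receptor for cyclin E, MYC and Notch, held 2 peaks in each list over 942, 1091, 1042 and 1189 bases. Its regions were chr3:84903533-84904077, 54.1% along the gene, and chr3:84976331-84977912, 99% along. Fbxw11, the beta-TrCP2 receptor of phosphorylated beta-catenin and I-kappa-B, held 1 peak in each list of 300, 350, 300 and 350 bases (chr11:32744571-32744970). Its close relative Btrc, which the naming rule leaves out, held 4 peaks in innervated replicate 2 and none elsewhere. Fbxw2 held 2, 2, 2 and 3 peaks, and Fbxw5 held 2 in denervated replicate 1.

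The Klhl family gave 171 peaks in 51 regions from 21 genes, and 26 of these regions were called in all lists. Klhl31 and Klhl40, both known from skeletal muscle, were called everywhere, while Klhl41, a muscle gene of the same family that was set aside, was called in the denervated lists alone. Klhl31, needed for muscle structure in mice, held 3 peaks in each list over 1145, 1047, 997 and 1096 bases, in 3 neighbouring regions at chr9:77650014-77655604. Klhl40, a stabiliser of nebulin mutated in nemaline myopathy, held 2, 2, 2 and 3 peaks over 296, 787, 296 and 886 bases, with both libraries numbered 2 above both numbered 1. Its all-list region was chr9:121778589-121780074. Of 10 known CUL3 adaptors 7 held a peak and 3 were called everywhere: Klhl9, Klhl21 and Klhl22, which act in mitosis. For comparison, 58.3% of Klhl coding genes and 26.3% of all other coding genes were called. Among called genes, 66.7% of the Klhl genes and 48.8% of the other genes were called everywhere.

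Klhl9 was the single gene of the 105 with the same covered length in every list, 1 peak of 1539 bases (chr4:88720226-88721764). Klhl18, an adaptor for Aurora A, held 5, 5, 4 and 6 peaks in 6 regions, 4 of them called everywhere, all between chr9:110426125 and chr9:110428962. Klhl24, known from keratin turnover in skin and from heart muscle disease, held 5, 6, 7 and 4 peaks, also with 4 all-list regions. Its covered bases were 1600 and 1601 in innervated and 1254 and 950 in denervated muscle, without overlap of the groups. Klhl26 held 3, 5, 3 and 5 peaks and 3 all-list regions, more in both libraries numbered 2. Klhl38 had a region of 1623 bases at chr15:58314622-58323003 with 1524, 1573, 1525 and 1573 covered bases, and the Klhl33 region reached 1310 bases at chr14:50891438-50893012.

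Remaining Klhl genes in all lists were Klhl8, Klhl28, Klhl30 and Klhl34. Klhl11, Klhl13 and Klhl15 were called in 3 lists, Klhl2, an adaptor for WNK kinases, in 2, and Klhl7, Klhl25 and Klhl29 in 1. The Asb family gave few peaks: of 11 Asb genes known from striated muscle, Asb2 and Asb8 held a peak. Over all Asb coding genes 22.2% were called, beside 26.3% of all other coding genes. Asb2, which targets filamins, had a peak of 399 bases in innervated replicate 1 and of 449 in denervated replicate 2 (chr12:103321192-103321640). Asb8 held 1 peak in each list of 793, 842, 793 and 793 bases (chr15:98135581-98136422). Asb5 and Asb15 had none, and Asb6, outside that list, had 1 peak in denervated replicate 1.

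Peaks of the 105 genes were wider than those of other genes in each of the 4 lists. Their median spliced width was 298.0 and 299.0 bases in the innervated and 299.0 and 347.0 in the denervated lists, beside 249.0, 250.0, 250.0 and 250.0 for the other genes. The mean excess over 4 lists was 61.0 ± 24.0 bases (SD, higher in 4 of 4; exact sign-flip permutation test, p = 0.125, the smallest possible, and 0.312 after Benjamini-Hochberg adjustment over 5 measures). Because 56 of the 105 genes stood in all 4 lists, the lists are not independent. The test therefore speaks only to how the excess recurs over lists, not to whether these genes differ from others. Widths came in steps, since 386 of 532 single-block peaks (72.6%) lay within 2 bases of a multiple of 50, so the excess was about 1 step. Among the alternatives tried the excess ran from 13.5 bases, with the larger-score 50% of each list, to 99.2. At 13.5 bases the exact sign-flip permutation test gave p = 0.75, so the difference did not have the same sign in every list. Medians by family were 299.0 for Trim, Rnf and Klhl, 298.0 for Fbxo, 249.0 for Fbxl, 401.0 for Fbxw and 448.0 for Asb.

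Between groups the median width of these genes was 298.5 ± 0.707 bases in innervated and 323.0 ± 33.9 in denervated muscle, a difference of 24.5 (SD, n = 2; exact permutation test, p = 0.667). The difference came from denervated replicate 2, without which it was 0.5. Fbxo peaks had medians of 249.0 and 198.0 in innervated and 400 and 373.5 in denervated lists, and Fbxl peaks 200 and 199.0 against 348.5 and 299.0. Trim peaks had 449.0 and 274.5 against 251.0 and 299.5, with overlapping groups. Groups also overlapped for Rnf (275.5 and 299.0 against 297.0 and 348.0), Fbxw (401.0 and 401.0 against 397.0 and 476.0) and Asb (324.0 and 644.5 against 395.5 and 473.0). Klhl peaks had 250.0 and 297.0 against 300 and 300. None of these family medians was tested, and those of Fbxo and Fbxl rest on 11 to 22 peaks per list.

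**Figure D4:**
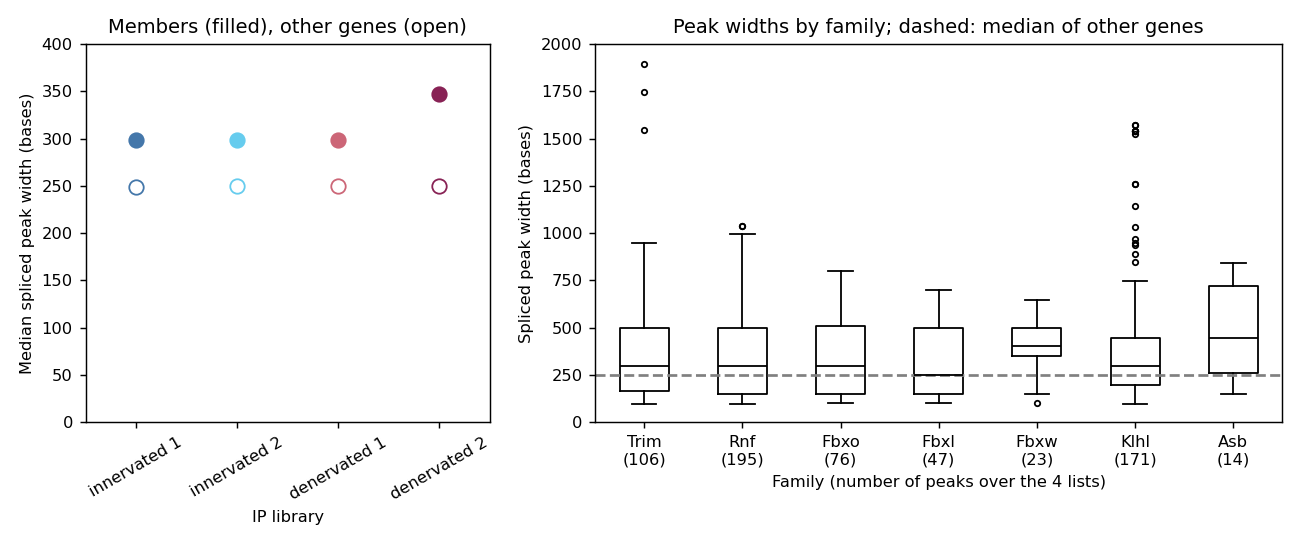
Left, median spliced width in bases of peaks in each IP library for the 105 genes (filled) and for all other called genes (open). Right, widths of single peaks by family, with the number of peaks in brackets; boxes span the quartiles, whiskers reach at most 1.5 times the box, circles are peaks beyond them and the dashed line is the median of the other genes. The filled points lie at 298.0 to 347.0 bases and the open ones at 249.0 to 250.0.

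Peaks in more than 1 block, which cross a gap in the genome, made up 100 of 632 (15.8%), beside 12.5% in other genes. By list the share was 10.1% and 15.9% in innervated and 17.6% and 19.3% in denervated muscle, and it exceeded that of the other genes in 3 of 4 lists (mean difference 3.16 ± 3.25 percentage points, exact sign-flip permutation test, p = 0.250, adjusted 0.312). It was highest for Fbxw (34.8%) and Asb (28.6%) and lowest for Rnf (9.23%).

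These genes also held slightly fewer peaks each. Peaks per called gene were 1.90 and 2.02 in innervated and 1.87 and 2.18 in denervated lists, beside 2.25, 2.22, 2.13 and 2.24. The difference was -0.220 ± 0.121 over the 4 lists, lower in each of them (exact sign-flip permutation test, p = 0.125, adjusted 0.312). Regions per gene had a median of 2 in both sets, a mean of 2.01 against 2.20 and a maximum of 6 against 27. A single region was held by 45 genes (42.9%), beside 43.5% of the others. Klhl genes averaged 2.43 regions, Fbxo 2.17, Fbxl 2.14, Fbxw 2.00, Trim 1.91, Rnf 1.83 and Asb 1.25. The median rank percentile of their peaks was 48.1 and 53.7 in innervated and 48.9 and 54.6 in denervated lists, near the middle of each list (difference from the others 1.27 ± 3.12, exact sign-flip permutation test, p = 0.5, adjusted 0.5).

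Peaks gathered toward the 3′ end, with marked differences between families. The middle of a peak lay at a median of 86.0% of the gene span, counted from the start of transcription and including introns, and 55.7% of peaks lay in the last 20%, beside 85.2% and 57.0% for other genes. By list the share in the last 20% was 53.4% and 58.5% in innervated and 56.0% and 54.7% in denervated muscle. Group means were 56.0 ± 3.65% and 55.3 ± 0.931%, a difference of -0.641 percentage points (SD, n = 2; exact permutation test, p = 1.0). Against the other genes the share differed by -1.30 ± 1.5 percentage points, higher in 1 of 4 lists (exact sign-flip permutation test, p = 0.250, adjusted 0.312).

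Fbxo peaks had the highest share of the 7 families at the 3′ end, with 82.9% in the last 20% and 3.95% in the first 20%. In each list their share in the last 20% was high, at 84.2% and 81.8% in innervated and 93.3% and 75% in denervated muscle. Fbxl peaks had the lowest share, 17.0%, with a median place of 41.0% and by-list shares of 15.4%, 9.09%, 25% and 18.2%. The ranges of the Fbxo and Fbxl families over the 4 lists did not overlap, but the Fbxl value rests on 47 peaks of 7 genes. Rnf peaks had 63.6% in the last 20%, Fbxw 60.9%, Asb 57.1%, Trim 52.8% and Klhl 46.2%. Trim peaks had the largest share in the first 20%, 25.5%, followed by Fbxl with 23.4%, beside 11.2% for all other genes. Because the gene span counts introns, these places are not places along the transcript, and the exon or untranslated region under each peak was not determined.

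**Figure D5:**
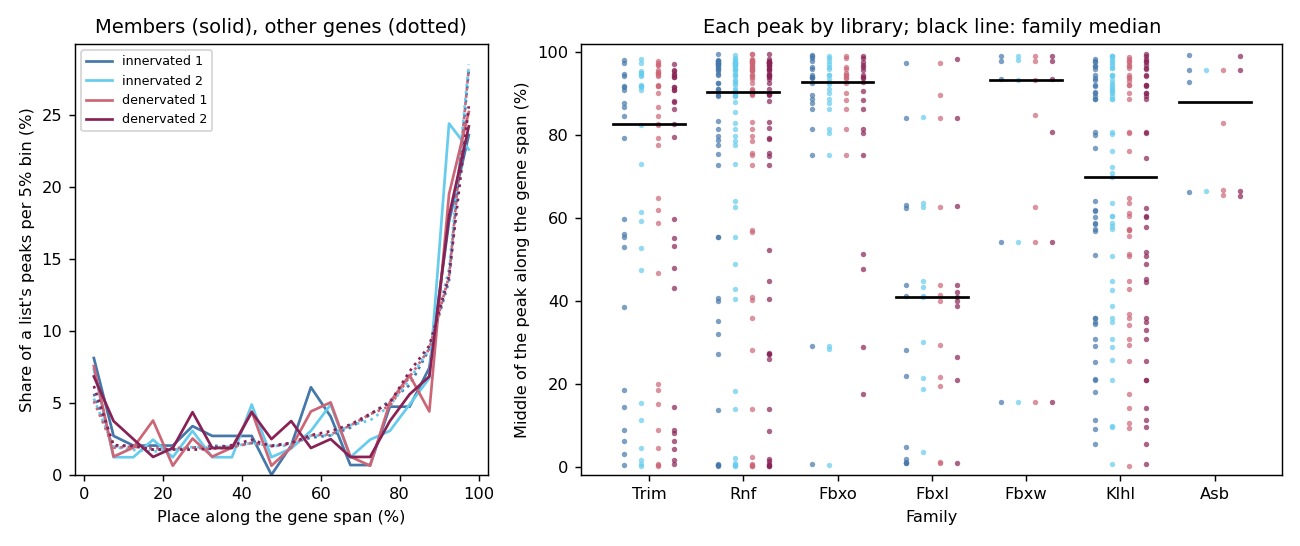
Left, share of each list's peaks (y axis, percent) in 5% bins along the gene span (x axis, percent from the start of transcription) for the 105 genes (solid) and other called genes (dotted). Right, place of each peak's middle along the gene span by family and IP library, with the family median as a black line. Solid and dotted lines both rise toward the 3′ end, and the family median runs from 41.0% for Fbxl to 93.4% for Fbxw.

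Of 18 cullin-RING scaffolds and adaptors, which carry the F-box, Kelch-BTB and SOCS-box receptors, 10 held a peak, counting Rnf7, beside 26.3% of coding genes outside the 7 families. In all lists stood 3 of the 10, beside 48.8% of the other called genes. Cul3, the scaffold of the Klhl proteins, held 1 peak in each list, and the exchange factors Cand1 and Cand2 held 2, 2, 2, 1 and 3, 3, 2, 3. In the denervated lists alone stood Dcun1d1, a factor of cullin neddylation, with 0, 0, 3 and 3 peaks. In the innervated lists alone stood Cul5, the scaffold of the Asb proteins, with 1, 2, 0 and 0. Each class thus held 1 of the 10 called genes, beside 3.47% and 3.20% of called genes in the background.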

How the data were processed

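The authors deposited a peak list for each IP library, made against its own input, with the position, strand, blocks, gene name and a score of each peak, per the file headers. The score is the authors' own value; what it measures is not given in the sources used here, and neither are the program that called peaks or its threshold. It ran from 0 to at most 0.023 and served only to rank peaks within a list. STAR 2.4.2a, ChIPseeker and mm10 are named in the submitters' processing notes. Libraries were made with a strand-preserving total RNA kit, per the labels' protocols.

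Peaks sharing at least 1 base on the same strand, blocks only, were linked into regions. A gene or region was assigned to a group where both of its lists and neither list of the other group held it. Gene spans came from RefSeq GRCm38.p6: 103 of the 105 names matched by symbol and 2 by an older symbol, and of all 5987 names 5725, 249 and 13 matched by symbol, by older symbol or not at all. Comparisons used two-sided exact permutation tests over libraries and exact sign-flip tests over the 4 lists, in Python 3.11.15 with pandas 2.3.3. Many of the same genes make up each list, so the sign-flip tests over the 4 lists speak only to recurrence over lists. The linking of peaks was tested on simulated data.

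The genes, lists and named genes were chosen with earlier results of these data known. Named were genes called in 1 group, genes with a group's region beside an all-list region, the 3 genes per family with the most all-list regions, the 5 with the widest all-list regions and 18 genes picked for their role; others are named to account for the remaining genes or a count, and a few items are not reported here by name. Alternatives were the smaller-score or larger-score 50% of each list, equal list lengths, 50% reciprocal overlap, genes assigned by RefSeq span, leaving out each library and a replicate block. Added after seeing the data were the return of the 6 genes set aside and the same alternatives for width, peaks per gene, Trim44, Klhl33 and Fbxo28. Reads, inputs and a genome sequence were not used here.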

Additional observations from a re-analysis of the deposited data

How the results depend on the processing

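With equal numbers of peaks from each list, the counts were 51 genes called everywhere, 1 and 0 in 1 group, and 4 and 3 such regions, and the group differences kept their sign. Assigning genes by RefSeq span left these counts at 56, 1, 0, 3 and 2; the group differences in genes, peaks, width and position were not run under it. With the smaller-score 50% of each list, 20 genes were called everywhere, 4 in the denervated lists only (Klhl33, Rnf168, Trim41 and Trim44), 3 in the innervated lists only (Fbxl14, Klhl11 and Rnf6), and 8 and 8 regions were called in 1 group. Differences in width and in the share in the last 20% then reversed to -2.5 bases and 3.76 percentage points. With the larger-score 50%, 10 genes were called everywhere, 2 in the denervated only and 2 in the innervated only, with 4 innervated regions, and the differences in peaks reversed to -1.0 over all these genes and to -1.0 for Klhl33. The Fbxo28 difference of -1.0 peaks became 0.0 with the smaller-score 50%. Trim44 had no peak with the larger-score 50% and kept its class in every other setting run. Fewer peaks enter both selections by construction. Reciprocal overlap of 50%, which divides regions, gave 8 denervated and 8 innervated regions. With the 6 genes put back there were 3 denervated genes and 5 denervated regions.

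Leaving out 1 library in turn loosens each class by construction. Genes of the denervated lists only then numbered 4 to 8 and of the innervated lists only 3 to 7, and regions 9 to 27 and 10 to 26. The highest counts came without denervated replicate 2 (8 genes), innervated replicate 1 (7 genes and 26 regions) and denervated replicate 1 (27 regions). The group difference in genes ran from -5.5 to 5.5 and that in peaks from -4.0 (without innervated replicate 1) to 12.0 (without innervated replicate 2). The difference in width ran from 0.5 to 48.5 bases and that in the share in the last 20% from -3.22 to 1.94 percentage points, so the sign of all but the width difference depended on the library left out. The width excess over other genes was 49.0 to 65.0 bases.

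A replicate block, pairing libraries by number, gave differences of 0.0 genes, 4.0 peaks, 24.5 bases and -0.641 percentage points (exact sign-flip test, p = 1.0, 1.0, 0.5 and 1.0; smallest possible 0.5). The labels do not say whether same-numbered libraries came from 1 mouse, and with 2 pairs the data do not settle it: the correlation of their deviations in peaks per gene was 0.165 over the 105 genes and 0.0144 over all called genes. Without read counts, depth limits every absence of a peak.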

Other observations

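Of 26 HECT ligases, which take ubiquitin onto their own cysteine before passing it on and need no cullin, 10 held a peak, beside 26.3% of coding genes outside the 7 families. All lists held 4 of the 10, among them Herc2, Trip12 and Arel1, beside 48.8% of the other called genes. Herc1, a giant HECT protein, was called in the innervated lists alone, with 3, 3, 0 and 0 peaks, and no HECT gene was called in the denervated lists alone, beside 3.20% and 3.47% of the other called genes. Ube3a, mutated in Angelman syndrome, held 6, 0, 3 and 0 peaks, all in libraries numbered 1.

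Some genes had many peaks in few libraries; these were chosen after their values were seen. Klhl25, a CUL3 adaptor, held 5 peaks over 1199 bases in innervated replicate 2 and none elsewhere. Fbxl17 held 4, 0, 3 and 0 peaks over 1252, 0, 953 and 0 bases, in the libraries numbered 1. Both libraries numbered 1 and no other held 5 of the 105 genes (4.76%), beside 1.89% of the other genes. For the libraries numbered 2 this was 2 genes (1.90%), beside 2.09%. These shares were not tested. Klhl15 held 3, 3, 0 and 4 peaks, so denervated replicate 1 alone lacked it.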
